A study of Mus musculus with 26 samples.

Results

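The 10 genes described here encode chaperones and folding enzymes of the endoplasmic reticulum (ER) and regulators of the unfolded protein response (UPR). They are *Hspa5*, *Hsp90b1*, *Calr*, *Canx*, *Pdia3*, *Pdia4*, *Pdia6*, *Xbp1*, *Dnajb9* and *Sdf2l1*, chosen by symbol from a table of 52962 genes in order to ask whether folding genes change along with collagen output. Each symbol matched 1 row, and all 10 were among the 15402 tested genes, those above a CPM (count scaled to the library total) of 0.5 in no fewer than 4 libraries. The lowest count of any of the 10 in any library was 418. In GENCODE on GRCm38 the chaperone genes span chr2:34771970-34777547 (*Hspa5*), chr10:86690209-86705509 (*Hsp90b1*), chr8:84841850-84846934 (*Calr*), chr11:50293961-50325673 (*Canx*), chr12:44205559-44210326 (*Dnajb9*) and chr16:17130138-17132383 (*Sdf2l1*). The disulfide isomerase genes span chr2:121413775-121438687 (*Pdia3*), chr6:47796141-47813430 (*Pdia4*) and chr12:17266545-17284770 (*Pdia6*), and *Xbp1* spans chr11:5520659-5525893.

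The cells were brown preadipocytes from newborn mice with floxed IR and IGF1R genes, immortalised with SV40 T antigen, in which Cre from an adenovirus had inactivated both receptors (double knockout, DKO). DKO cells were then given FLAG-tagged human receptors by retrovirus: wild-type IR of the B isoform (IR cells), a kinase-dead receptor with a single substitution (K1030R), a receptor without its C-terminal tail (∆CT), or a receptor that keeps only the juxtamembrane piece of the intracellular domain (JMO). The study's methods list an empty vector beside these receptors and hygromycin selection, and the labels of the DKO libraries do not say whether those cells carried it, so an effect of the vector or the selection cannot be told apart from that of a receptor in comparisons with DKO. All groups share the loss of mouse IR and IGF1R, T antigen, and 6 h without serum. Each receptor line was sequenced in the basal state and after 15 min of 100 nM insulin, and DKO cells in the basal state only, which gave 26 libraries in 9 groups. Each group had 3 libraries, except insulin-treated ∆CT cells with 2. Each receptor is represented by a single transduced population. The sources used here do not say whether the libraries of a group came from separate cultures. The p-values therefore measure the spread between these libraries, which may be technical, and an effect of the receptor and a property of that population cannot be told apart.

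Secreted and membrane proteins are threaded into the ER, where chaperones hold them while disulfide bonds and sugars are added. When unfolded protein accumulates, the sensors IRE1, PERK and ATF6 raise the transcription of these same chaperones. Collagen is the bulkiest secretory load of a fibroblast-like cell and has folding factors of its own, among them the collagen-binding chaperone HSP47, encoded by *Serpinh1*.

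Library totals ran from 17228982 to 24694828 counts, and libraries of a group varied by a biological coefficient of variation of 4.44%. *Insr* lay between 22.3 and 24.8 CPM in the DKO libraries and between 65.5 and 99.6 CPM in the 23 libraries of receptor lines. *Igf1r* stood at 24.7 to 28.6 CPM in DKO cells and at 29.7 to 35.7 CPM in the receptor lines, and was called higher in each of the 4 lines against DKO in the basal state (log2 differences of 0.15 to 0.37). Neither value settles the labels, since a gene total does not separate the deleted part from the rest of the transcript, and whether reads of the human receptor were assigned to mouse *Insr* cannot be told from it. Of the 10 preadipocyte markers listed, 8 were tested, with a summed level, *Col1a1* included, of 4629.9 to 9147 CPM, whereas none of 5 leukocyte markers passed the filter (0.128 to 0.723 CPM summed, 1 of them at 0 in every library). The 6 brown adipocyte markers summed to 0.551 to 4.88 CPM and only *Fabp4* was tested. The 4 endothelial markers summed to 6.96 to 17.5 CPM, and the 5 myogenic markers to 1.75 to 4.74 CPM, of which 2 were at 0 in every library. In bulk RNA of this kind, fewer cells with a transcript and less of it per cell cannot be told apart. Markers also moved between lines. In the contrast of lines with against lines without most of the intracellular domain, 4 of the 8 preadipocyte markers rose and 3 fell. They were led by *Ly6a* (log2 difference -2.62) and *Cd34* (1.57). *Fabp4* (-1.79) and the myogenic marker *Des* (-0.58) fell as well. Of all genes, 26.7% rose and 25.6% fell in this contrast, and the part of the markers in the results below was not tested.

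Promoters of all 10 genes were found among the RefSeq promoters of GRCm38.p6, each running from 250 bases before the annotated start to 50 bases after it. The ER stress response element, to which ATF6 binds together with NF-Y, was searched on both strands as CCAAT and CCACG separated by any 9 bases. It was present in 5 of the 10 promoters, and in 39 of all 32851 promoters (0.119%). The stretches are shown because these letters are what the 5 genes share in sequence, with the CCAAT and CCACG parts in capitals. Those read on the other strand appear as ATTGG and CGTGG. Each is written 5′ to 3′ along the gene with 15 bases on either side.
Hspa5: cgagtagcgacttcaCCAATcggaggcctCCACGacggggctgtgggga
Hsp90b1: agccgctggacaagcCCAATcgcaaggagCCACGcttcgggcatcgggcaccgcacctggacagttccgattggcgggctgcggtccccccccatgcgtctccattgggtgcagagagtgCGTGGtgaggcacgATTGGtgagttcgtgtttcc
Calr: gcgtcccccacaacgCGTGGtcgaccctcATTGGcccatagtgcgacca
Canx: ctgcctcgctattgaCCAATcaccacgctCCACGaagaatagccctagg
Pdia6: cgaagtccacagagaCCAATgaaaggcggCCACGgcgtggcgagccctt

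These stretches lie at chr2:34772010-34772058 on the plus strand (*Hspa5*), chr10:86705518-86705671 on the minus strand (*Hsp90b1*), chr8:84847060-84847108 on the minus strand (*Calr*), chr11:50325785-50325833 on the minus strand (*Canx*) and chr12:17266476-17266524 on the plus strand (*Pdia6*). All lie upstream of the RefSeq start. That of *Hspa5* falls inside the wider GENCODE gene model, which begins at 34771970. *Hsp90b1* held 2 copies, 1 in each orientation, and was the 1 promoter of the 32851 (0.003%) that held 2 or more. ATTGG and CCACG separated by any 1 base (ER stress response element II, 0.0365% of promoters) and TGACGTGG (0.676% of promoters) were in none of the 10. CCAAT alone, which also lies within the longer motifs, was in 9 of the 10 and in 37.4% of all promoters, and CCACG alone in 8 and in 32.8%. A match is a description of the letters only. Elements that differ in any fixed letter, or lie outside the 300 bases searched, were not counted. A gene without a match, or with 1, may therefore hold more such elements.

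Per kilobase of the longest transcript, the level over all libraries was highest for *Hsp90b1*, at 623 CPM per kb, followed by *Calr* (533), *Pdia3* (277), *Hspa5* (223), *Canx* (181), *Pdia6* (139.9) and *Pdia4* (96.9). The 3 low members were *Sdf2l1* at 31.1, *Xbp1* at 17.7 and *Dnajb9* at 11.03 CPM per kb. The abundant genes are thus the chaperones and disulfide isomerases themselves, and the scarce ones a transcription factor and a pair of co-chaperones.

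In the basal state, cells with the wild-type receptor had less of most of these transcripts than cells with the kinase-dead or C-terminally truncated receptor. Between K1030R and IR cells, 9 of the 10 genes were higher in K1030R and none was lower (edgeR's quasi-likelihood test, Benjamini-Hochberg adjusted p below 0.05 over all 15402 genes, used for every call below), where 13.9% of all genes were higher and 16.3% lower. Between ∆CT and IR cells, 8 were higher in ∆CT and none was lower, where 11.2% of all genes were higher and 14.8% lower. The median log2 difference of the 10 genes was 0.25 for K1030R and 0.37 for ∆CT, beside -0.0111 and -0.0105 for all genes. Both comparisons share the 3 basal IR libraries, so their likeness is in part built in. *Xbp1* had the widest gap, with log2 differences of 0.65 ± 0.058 (SE) and 0.59 ± 0.058. With 1.5-fold set as the minimum no difference was called, although 3 fitted values exceeded it (*Xbp1* in K1030R and ∆CT against IR, 1.57-fold and 1.51-fold, and *Sdf2l1* in JMO against IR, 1.61-fold). Of 110 tests of the 10 genes over 11 basal comparisons none was called by edgeR's glmTreat or by limma TREAT, and 2 had an unadjusted p below 0.05 by glmTreat. By glmTreat, 6.89%, 5.29%, 6.29% and 2.11% of all genes were called in IR, K1030R, ∆CT and JMO cells against DKO, 1.04%, 0.708% and 4.59% in K1030R, ∆CT and JMO cells against IR, and 0.039%, 3.64% and 4.5% in ∆CT against K1030R, JMO against K1030R and JMO against ∆CT. In the contrast on the intracellular domain described below it was 5.67%.

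**Figure D1:**
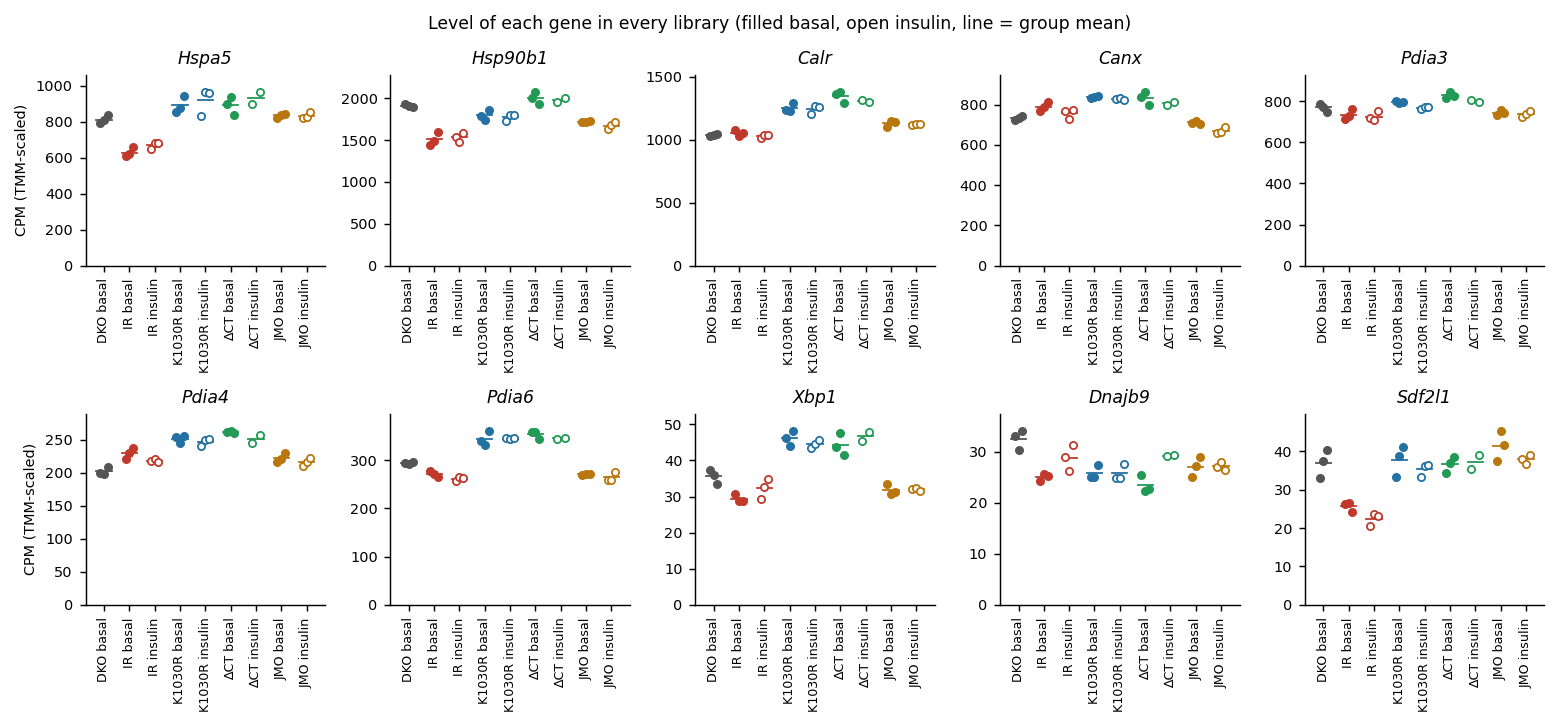
TMM-scaled CPM of each gene (vertical axes, from 0) in each of the 26 libraries, by group (horizontal axes), with filled points for basal and open points for insulin libraries and a line at each group mean. The IR libraries lie below all K1030R and ∆CT libraries for 8 of the 10 genes, *Canx* and *Dnajb9* being the exceptions.

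Without reference to a test, all 6 IR libraries, basal and insulin, lay below all 11 K1030R and ∆CT libraries for 8 of the 10 genes, a separation shown by 5.68% of the 15402 genes. For *Hspa5*, *Hsp90b1* and *Sdf2l1* they lay below every other library of the series, as did 2.8% of all genes. *Canx* overlapped between IR and ∆CT, and *Dnajb9* between IR and both mutants.

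*Hspa5* encodes BiP, the Hsp70 of the ER, which holds unfolded chains and keeps the UPR sensors inactive when it is bound to them. Its level in basal libraries was 607, 619 and 657 CPM in IR cells, 789, 807 and 834 in DKO, 851, 878 and 942 in K1030R, 899, 934 and 837 in ∆CT, and 820.3, 837 and 844 CPM in JMO cells. The IR values stood apart from all others, and those of the other 4 lines lay close together. Against IR, *Hspa5* was higher by 0.50 ± 0.050 on the log2 scale in K1030R (adjusted p = 2.8e-08), by 0.50 ± 0.050 in ∆CT (4.4e-08) and by 0.41 ± 0.050 in JMO cells (2.7e-07), and IR was lower than DKO by 0.37 (log2 difference -0.37 ± 0.050, 1.0e-06). K1030R and ∆CT were each 0.14 above DKO, with adjusted p of 0.031 and 0.027 that did not hold without single libraries. They rose to 0.111 and 0.0991 without DKO basal 1, to 0.0711 and 0.065 without DKO basal 2, for K1030R to 0.17 without K1030R basal 3 and 0.0511 without JMO insulin 2, and for ∆CT to 0.0756 and 0.146 without ∆CT basal 1 or 2. With library totals alone for scaling they were 0.105 and 0.164.

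*Sdf2l1* encodes a lumenal protein found in complexes with BiP and its co-chaperones. Basal levels were 26.3, 26.5 and 24.1 CPM in IR cells, 33.0, 37.4 and 40.3 in DKO, 33.4, 38.8 and 41.1 in K1030R, 34.4, 36.8 and 38.5 in ∆CT, and 37.4, 45.2 and 41.7 in JMO cells. IR was again below every library of the other lines, which overlapped each other. Its log2 difference from DKO, -0.53 ± 0.081 (adjusted p = 3.5e-06), was the largest of the 10 genes between those lines, and JMO cells were higher than IR cells by 0.69 ± 0.079 (95% interval 0.53 to 0.85, adjusted p = 5.2e-08). K1030R and ∆CT exceeded IR by 0.56 and 0.51, each with an SE of 0.081.

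*Dnajb9* encodes ERdj4, an Hsp40 that delivers clients to BiP and is transcribed under XBP1. It followed another course: DKO cells, at 33.2, 30.3 and 34.0 CPM, were above all basal libraries of the receptor lines, which ran from 22.4 to 29.1 CPM. Against DKO, IR cells differed by -0.38 ± 0.065, JMO cells by -0.27 ± 0.064, K1030R cells by -0.33 ± 0.065 and ∆CT cells by -0.47 ± 0.066, with adjusted p from 2.5e-07 to 0.0011. *Dnajb9* is the member that fell in all 4 receptor lines, which share the DKO libraries as controls. Read from the ∆CT insulin libraries, the ∆CT value was -0.15 (adjusted p = 0.0801). K1030R and IR differed by 0.05 ± 0.067 and ∆CT and IR by -0.09 ± 0.068, neither past the threshold. JMO exceeded ∆CT by 0.20 ± 0.067 (adjusted p = 0.016), a call lost without ∆CT basal 2 (0.0815), ∆CT basal 3 (0.0584) or JMO basal 3 (0.112). Read from insulin libraries it turned to -0.11 (0.279), as did K1030R against IR to -0.16 (0.0631) and ∆CT against IR to 0.025 (0.868).

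*Hsp90b1* encodes GRP94, the Hsp90 of the ER, which matures integrins, Toll-like receptors and insulin-like growth factors. Basal libraries held 1439.7, 1484 and 1601 CPM in IR cells, 1785, 1742 and 1866 in K1030R, 1716, 1722 and 1725 in JMO, 1937, 1905 and 1895 in DKO, and 2009, 2077 and 1934 in ∆CT cells. IR was lowest and ∆CT highest, with DKO overlapping ∆CT. IR was below DKO by 0.34 (-0.34 ± 0.034, adjusted p = 1.8e-10). ∆CT exceeded IR by 0.41 ± 0.034 (5.4e-11), and it also exceeded K1030R by 0.16 ± 0.034 (0.0043), which makes *Hsp90b1* and *Calr* the genes of the 10 called between these 2 mutants. That adjusted p was 0.0753 when only the libraries of both groups were fitted. JMO was lower than DKO by 0.15 (-0.15 ± 0.034, 0.00057). The call between K1030R and DKO (-0.09 ± 0.034, adjusted p = 0.033) was lost without DKO basal 1 (0.101), DKO basal 2 (0.0600), K1030R basal 1 (0.0811) or K1030R basal 2 (0.169), and without the filter on low counts (0.0678).

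Calreticulin (*Calr*) and calnexin (*Canx*) are the lectin chaperones, the former soluble and the latter membrane-bound, that retain glycoproteins until they are folded. *Calr* had 1031.5, 1034.5 and 1047.5 CPM in DKO, 1072, 1031.2 and 1049 in IR, 1103, 1147 and 1138 in JMO, 1234, 1231 and 1287 in K1030R, and 1362, 1379 and 1291 CPM in ∆CT cells, all basal. IR and DKO overlapped, JMO was a step above them, and K1030R and ∆CT were higher still. Against DKO the log2 differences were 0.12 ± 0.029 in JMO (adjusted p = 0.00095), 0.27 ± 0.029 in K1030R (1.1e-09) and 0.37 ± 0.029 in ∆CT cells (3.9e-13), and against IR 0.10 ± 0.029, 0.25 ± 0.029 and 0.35 ± 0.029. The excess of ∆CT over K1030R, 0.10 ± 0.028, had an adjusted p of 0.033. It became 0.141 and 0.123 without K1030R basal 1 or 2, and 0.139 and 0.131 without ∆CT basal 1 or 2. It was 0.0842 without the filter on low counts, 0.154 with library totals alone and 0.234 when read from insulin libraries.

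*Canx* overlapped between IR and ∆CT. Its basal levels were 767, 788 and 814 CPM in IR, 835, 836 and 842 in K1030R, 837, 864 and 799 in ∆CT, 722, 737 and 745 in DKO, and 711, 719.6 and 707 in JMO cells. DKO and JMO libraries were below all others, and the IR libraries reached into the range of ∆CT. All 3 lines exceeded DKO, by 0.10 ± 0.030 (IR, adjusted p = 0.0037), 0.19 ± 0.030 (K1030R, 2.5e-06) and 0.18 ± 0.030 (∆CT, 4.4e-06), although the IR value was 0.063 with an adjusted p of 0.0854 when library totals alone were used for scaling and 0.046 (0.213) when read from the IR insulin libraries. JMO was lower than IR by 0.15 (-0.15 ± 0.030, 0.00011). The call between K1030R and IR (0.09 ± 0.030, adjusted p = 0.026) was lost without IR basal 1 (0.149), IR basal 2 (0.0713), K1030R basal 1 (0.0527), K1030R basal 2 (0.0501) or K1030R basal 3 (0.078), and without the filter on low counts (0.0779). ∆CT and IR differed by 0.08 ± 0.030 (adjusted p = 0.052), and that value fell to between 0.00641 and 0.0496 without any of 8 single libraries: DKO basal 1, IR basal 3, IR insulin 2, ∆CT basal 3, JMO basal 3 or JMO insulin 1, 2 or 3. It was also called with DESeq2 (0.0140) and limma voom (0.0359).

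The protein disulfide isomerases make and reshuffle disulfide bonds. *Pdia6*, which encodes P5, had 278, 271 and 266 CPM in IR, 269, 272 and 271 in JMO, 294, 293 and 297 in DKO, 339, 333 and 360.3 in K1030R, and 359.3, 358.9 and 343 in ∆CT cells. IR and JMO formed the low end, DKO lay between, and the K1030R and ∆CT libraries were above all of these. The log2 differences from DKO were -0.12 ± 0.031 in IR (adjusted p = 0.0020), -0.12 ± 0.031 in JMO (0.0022), 0.22 ± 0.031 in K1030R (3.3e-07) and 0.26 ± 0.031 in ∆CT cells (9.7e-09). Against IR, K1030R was higher by 0.34 ± 0.031 and ∆CT by 0.38 ± 0.031, with adjusted p of 2.5e-10 and 4.8e-11.

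*Pdia4*, encoding ERp72, was lowest in DKO, at 199, 198.7 and 209 CPM. It reached 217, 221 and 229 in JMO, 221, 229 and 238 in IR, 254, 244 and 255 in K1030R, and 262, 263 and 260.2 in ∆CT cells. This gene rose in all 4 receptor lines against DKO, by 0.13 ± 0.034 (JMO), 0.18 ± 0.034 (IR), 0.31 ± 0.034 (K1030R) and 0.37 ± 0.034 (∆CT), with adjusted p from 2.4e-11 to 0.0019. K1030R and ∆CT were above IR by 0.13 ± 0.033 (adjusted p = 0.0025) and 0.19 ± 0.033 (4.1e-05).

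*Pdia3*, whose product ERp57 works on glycoproteins held by calnexin and calreticulin, moved least, by at most 0.17 on the log2 scale in the 11 basal comparisons. It ran from 715 to 846 CPM over the 15 basal libraries. ∆CT exceeded DKO by 0.11 ± 0.029 (adjusted p = 0.0024), a value of 0.068 with an adjusted p of 0.0745 under library totals alone and 0.059 (0.144) when read from insulin libraries, and K1030R and ∆CT exceeded IR by 0.12 ± 0.029 (0.0017) and 0.17 ± 0.029 (1.7e-05). The difference between IR and DKO, -0.07 ± 0.029, had an adjusted p of 0.0498. It became 0.2 and 0.101 without DKO basal 1 or 2, 0.228 and 0.127 without IR basal 1 or 2, and between 0.051 and 0.0566 without any of 10 libraries of groups outside that comparison, and 0.240 without the filter on low counts, so it is a call at the edge.

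*Xbp1* encodes the transcription factor of the IRE1 branch. IRE1 acts by splicing the transcript, which a gene total does not show, so these values are of the total transcript only. Basal levels were 30.6, 28.9 and 28.6 CPM in IR, 33.4, 30.6 and 31.2 in JMO, 37.4, 35.8 and 33.5 in DKO, 43.8, 47.6 and 41.4 in ∆CT, and 46.1, 44.1 and 48.1 in K1030R cells. The low and high ends did not overlap, and K1030R and ∆CT overlapped each other. Against DKO the differences were 0.38 ± 0.057 in K1030R (adjusted p = 1.3e-06), 0.32 ± 0.057 in ∆CT (1.5e-05) and -0.27 ± 0.059 in IR cells (0.00024). The IR value was -0.13 (adjusted p = 0.0611) when read from the IR insulin libraries. JMO was 0.53 below K1030R (-0.53 ± 0.057) and 0.48 below ∆CT (-0.48 ± 0.057). The call between JMO and DKO (-0.16 ± 0.058, adjusted p = 0.036) was lost without DKO basal 1 (0.184), DKO basal 2 (0.0861), JMO basal 2 (0.129) or JMO basal 3 (0.11). It was also lost with DESeq2 (0.0542), limma voom (0.0540) and the JMO insulin libraries (0.0537).

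**Figure D2:**
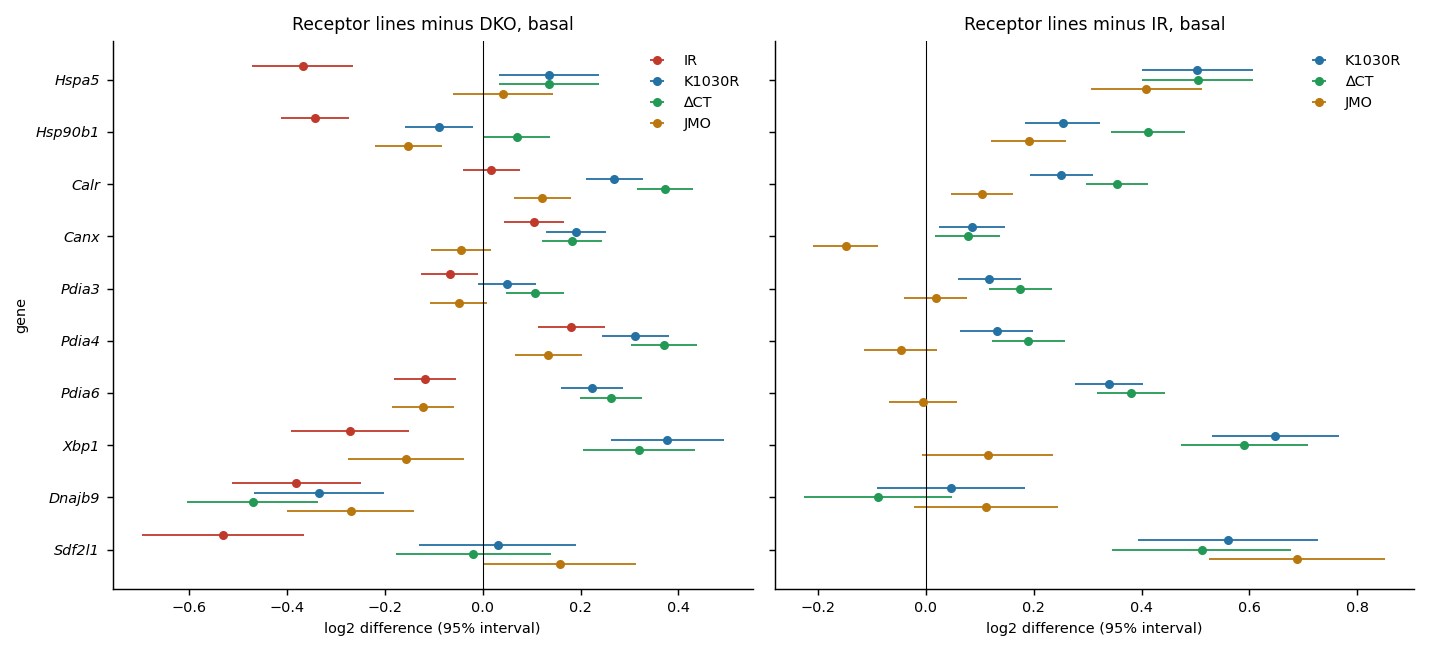
Log2 differences (horizontal axes) with 95% intervals for the 10 genes (vertical axis), basal state, for each receptor line minus DKO on the left and for K1030R, ∆CT and JMO minus IR on the right, from the edgeR fit to 26 libraries. On the left IR lies below 0 for 7 genes, down to -0.53 for *Sdf2l1*, and on the right the intervals of K1030R and ∆CT lie above 0 for all genes but *Dnajb9*, at 0.05 and -0.09 with intervals across 0.

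Set against DKO cells, the 4 receptor lines thus differed in how many of the 10 genes were higher or lower. In IR cells 2 rose and 7 fell, with *Pdia3* among those that fell, where 25.6% of all genes rose and 24.1% fell. In K1030R cells 6 rose and 2 fell (21.2% and 20.4% of all genes), and in ∆CT cells 7 rose and *Dnajb9* fell (23.4% and 22.9%). In JMO cells 2 rose and 4 fell (16.8% and 17.4%). The median log2 differences of the 10 genes were -0.19, 0.16, 0.16 and -0.05 in that order, and the medians over all genes were 0.0138, 0.00834, 0.0108 and 0.00749. All 4 comparisons share the 3 DKO libraries.

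Between the mutant receptors, 2 of the 10 genes were higher in ∆CT than in K1030R and none was lower, where 1.49% of all genes were higher and 1.95% lower. Against JMO, 6 genes were higher in K1030R, led by *Xbp1*, *Pdia6* (log2 difference of JMO -0.35 ± 0.031) and *Canx* (-0.23 ± 0.030), where 18% of all genes were higher in K1030R. In the same direction 7 genes were higher in ∆CT (19.3% of all genes), and *Dnajb9* was lower in it (19.5%). *Pdia3* in JMO against K1030R was at -0.10 ± 0.029 (adjusted p = 0.0065). That call was lost with library totals alone (-0.079, adjusted p = 0.0502) and when read from insulin libraries (-0.060, 0.0986). JMO against IR gave 4 higher genes (*Hspa5*, *Hsp90b1*, *Calr* and *Sdf2l1*) and 1 lower gene (*Canx*), where 20.7% of all genes were higher and 21.8% lower.

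Collagen transcripts gave a different order of the lines. The fibrillar collagen chains summed to 8319.8 ± 254 CPM (SD, n = 3) in DKO and 8944 ± 35.5 in JMO cells, to 14454 ± 331 in K1030R and 15463 ± 477 in ∆CT, and to 18403 ± 762 CPM in IR cells. IR cells had the highest collagen sum and the lowest level of *Hspa5*, *Hsp90b1* and *Sdf2l1*. The summed level of the 10 folding genes was 5292 ± 150.3 CPM in IR, 5734 ± 61.8 in JMO, 5867 ± 17.9 in DKO, 6279 ± 166 in K1030R and 6623 ± 218 in ∆CT cells. Per 100 counts of fibrillar collagen there were 28.8 ± 2.05 counts of the 10 genes in IR, 42.9 ± 2.71 in ∆CT, 43.5 ± 1.66 in K1030R, 64.1 ± 0.50 in JMO and 70.6 ± 1.95 in DKO cells. This ratio has collagen in its denominator and falls wherever collagen rises by more than the folding genes do.

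*Col1a1* and *Col1a2* encode the chains of type I collagen and *Col3a1* that of type III collagen. In IR against DKO cells they rose by 1.15 ± 0.040, 1.11 ± 0.028 and 1.41 ± 0.036 on the log2 scale. In K1030R against IR cells they were lower, by -0.25 ± 0.040 (adjusted p = 1.8e-05), -0.33 ± 0.028 (3.8e-11) and -0.86 ± 0.036 (8.8e-19), which is the opposite direction to *Hspa5*, *Xbp1* and *Sdf2l1* in the same comparison. Of the 10 fibrillar chains tested, 7 were lower in K1030R than in IR, none was higher and 3 were not called. In that comparison 16.3% of all genes were lower and 13.9% higher. The chains did not all follow the order of their sum, and in JMO against DKO cells 6 of the 10 were higher (up to 1.87), 2 lower (down to -0.59) and 2 not called, where 16.8% of all genes were higher and 17.4% lower.

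*Serpinh1* was likewise higher in the 3 lines with a large intracellular domain, but IR did not stand above the mutants. Its basal level was 378 ± 17.3 CPM in DKO, 456 ± 14.3 in JMO, 595 ± 12.8 in K1030R, 626 ± 40.2 in IR and 626 ± 11.2 in ∆CT cells. Against DKO it rose in IR cells by 0.73 ± 0.039 (adjusted p = 2.3e-17), and K1030R differed from IR by -0.07 ± 0.039 (0.16). Per 1000 counts of fibrillar collagen there were 34.0 ± 0.832 counts of *Serpinh1* in IR, 40.5 ± 0.879 in ∆CT, 41.1 ± 1.08 in K1030R, 45.4 ± 0.693 in DKO and 50.9 ± 1.39 in JMO cells.

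**Figure D3:**
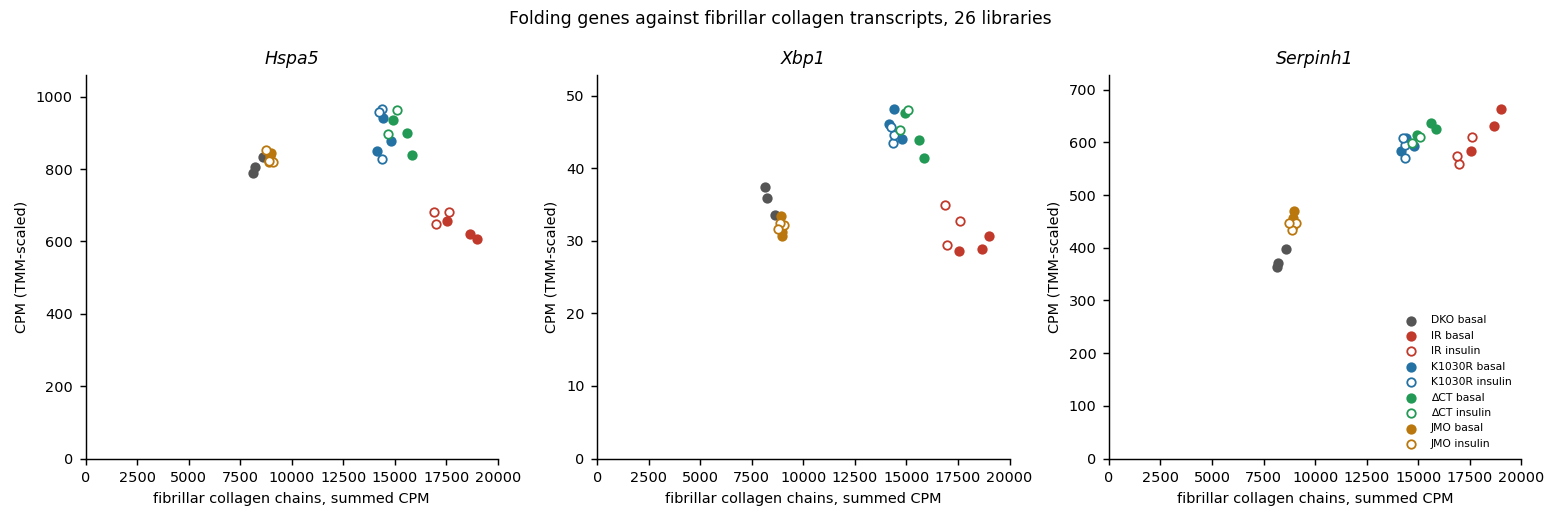
TMM-scaled CPM (vertical axes, from 0) of *Hspa5*, *Xbp1* and *Serpinh1* against the summed CPM of the fibrillar collagen chains (horizontal axes) in the 26 libraries, filled basal and open insulin. The IR libraries have the highest collagen sums, of 16885 to 19003 CPM, and the lowest *Hspa5*, of 607 to 682 CPM, while *Serpinh1* is high in all 3 lines with a large intracellular domain.

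Lines with and without most of the receptor's intracellular domain were compared as the mean of IR, K1030R and ∆CT minus the mean of DKO and JMO. In that contrast 6 of the 10 folding genes rose and 2 fell, where 26.7% of all genes rose and 25.6% fell. Those that rose were *Pdia4* (0.22 ± 0.022), *Xbp1* (0.22 ± 0.037), *Canx* (0.18 ± 0.019), *Pdia6* (0.18 ± 0.020), *Calr* (0.16 ± 0.018) and *Pdia3* (0.05 ± 0.019), the last not called without DKO basal 3 (adjusted p = 0.0661) or JMO basal 1 (0.0538), and at 0.021 (0.411) with library totals alone and 0.022 (0.371) when read from insulin libraries. *Dnajb9* fell by 0.26 (-0.26 ± 0.042) and *Sdf2l1* by 0.25 (-0.25 ± 0.050). Read from insulin libraries, the *Dnajb9* value was -0.092 (adjusted p = 0.0741). *Hspa5*, at -0.05 ± 0.032, was not called, but with library totals alone it was -0.086 (adjusted p = 0.0488) and *Hsp90b1* -0.078 (0.00459), both called. Read from insulin libraries, *Hspa5* turned to 0.016 (0.722). *Hsp90b1*, at -0.04 ± 0.022 (adjusted p = 0.085), was called lower without IR basal 3 (0.00836), K1030R basal 3 (0.0422) or ∆CT basal 2 (0.0394). The contrast averages IR with 2 lines from which it differed in most of these genes, so a small mean such as that of *Hspa5* holds a low IR value and high values of the others.

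The 10 genes had a median of 0.11 in this contrast, beside 0.00540 for all genes. The median was 0.77 for the 10 fibrillar collagen chains and 0.43 for 22 other collagen chains. Of these 22, 14 were higher, 4 lower and 4 not called, where 26.7% of all genes rose and 25.6% fell. They ran from -2.29 (*Col23a1*) to 1.47 (*Col14a1*). With 1.5-fold as the minimum, none of 11 collagen-folding factors was called in this contrast by glmTreat, beside 5.67% of all genes. Without that minimum 10 of the 11 factors rose and 1 fell, with a median of 0.38, where 26.7% of all genes rose and 25.6% fell. They were led by *P3h1* (0.61 ± 0.032), which hydroxylates proline in collagen chains, *Fkbp7* (0.58 ± 0.046) and *Fkbp9* (0.54 ± 0.019), which are prolyl isomerases of the ER, and *Serpinh1* (0.57 ± 0.025). In K1030R against IR, 1 of these 11 was higher and 1, *Fkbp7*, was lower (-0.44 ± 0.067), with a median of 0.0024. Of all genes, 13.9% were higher and 16.3% lower in that comparison.

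For the lists that follow, 26.7% of all genes rose and 25.6% fell in this contrast. Among other ER lists, 22 of 31 genes of translocation and signal peptide processing rose and 3 fell (median 0.13), led by the translocon subunits *Sec61b* (0.48 ± 0.037) and *Sec61g* (0.47). Of 16 other disulfide and oxidation enzymes, 11 rose and 2 fell (median 0.16), among them the peroxiredoxin *Prdx4* (0.33 ± 0.021) and *P4hb* (0.30 ± 0.016), which is both a disulfide isomerase and the beta subunit of collagen prolyl 4-hydroxylase. Of 20 other lumenal chaperones 6 rose and 6 fell (median 0.01). Those that led were calcium-binding proteins of the reticulocalbin family, *Rcn1* (0.57 ± 0.024), *Rcn3* (0.48), *Calu* (0.36) and *Rcn2* (0.18). Of 24 genes of ER-associated degradation and glycoprotein quality control 10 rose and 4 fell (median 0.04), led by *Herpud1* (0.86 ± 0.030), which recruits substrates to the degradation complex.

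Genes of the UPR arms moved in both directions, against the same shares of all genes (26.7% and 25.6%). Of 14 sensors and transcription factors 6 rose and 2 fell (median 0.06). *Atf4*, the factor translated under PERK, rose by 0.68 ± 0.031, and *Eif2ak3*, which encodes PERK, by 0.28 ± 0.033, whereas *Ern1*, which encodes IRE1, fell by 0.30 (-0.30 ± 0.031). Of 9 genes listed as outputs of the PERK branch 8 rose and 1 fell (median 0.30). The list name does not show that PERK acted on them, and the activity of PERK was not tested. The pseudokinase *Trib3* rose by 2.09 ± 0.060, the glutathione-degrading enzyme *Chac1* by 1.56 ± 0.070 and asparagine synthetase *Asns* by 0.76 ± 0.029. IR cells held 37.0 ± 3.71 CPM of *Trib3*, K1030R cells 34.3 ± 1.02 and ∆CT cells 31.3 ± 3.46, whereas DKO cells held 7.22 ± 0.185 and JMO cells 8.92 ± 0.274 CPM.

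In K1030R against IR, 13.9% of all genes were higher and 16.3% lower. There the genes listed as PERK outputs gave 1 higher and none lower of 9 (median -0.04). The 14 sensors and factors gave 2 higher and 2 lower (median 0.04). The 16 disulfide and oxidation enzymes gave 1 higher and 3 lower (median -0.03), the 24 degradation genes 3 higher and 3 lower (median 0.0022) and the 31 translocation genes 7 higher and 1 lower (median 0.05). The 20 other lumenal chaperones gave 5 higher and 6 lower (median -0.03). Of the 5 higher genes the next 3 were picked after their values were seen, for moving the way of the 10 genes, and are no evidence for the list. *Hyou1*, an Hsp110 of the ER, was higher in K1030R than in IR by 0.34 ± 0.042, *Manf*, a secreted BiP-binding factor, by 0.35 ± 0.048, and *Creld2* by 0.27 ± 0.060, and each was lower in IR than in DKO cells (-0.30 ± 0.042, -0.29 ± 0.048 and -0.35 ± 0.059). *Herpud1*, also a UPR target, went the other way in IR against DKO (1.07 ± 0.047) and differed between K1030R and IR by -0.05 ± 0.043 (adjusted p = 0.41). Cytosolic and mitochondrial chaperones, a list outside the ER, gave 8 higher and none lower of 18 (median 0.08). *Hsp90aa1*, an Hsp90 of the cytosol, was higher by 0.40 ± 0.037. In ∆CT against IR, where 11.2% of all genes were higher and 14.8% lower, these 18 gave 8 higher and 1 lower (median 0.14). There the translocation genes gave 13 higher and 1 lower (median 0.09). The degradation genes gave 5 higher and 3 lower (-0.03), the other lumenal chaperones 5 and 6 (-0.03). The disulfide and oxidation enzymes gave 2 higher and 3 lower (-0.02), and the sensors and the listed PERK outputs each 1 and 2 (0.02 and -0.10).

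**Figure D4:**
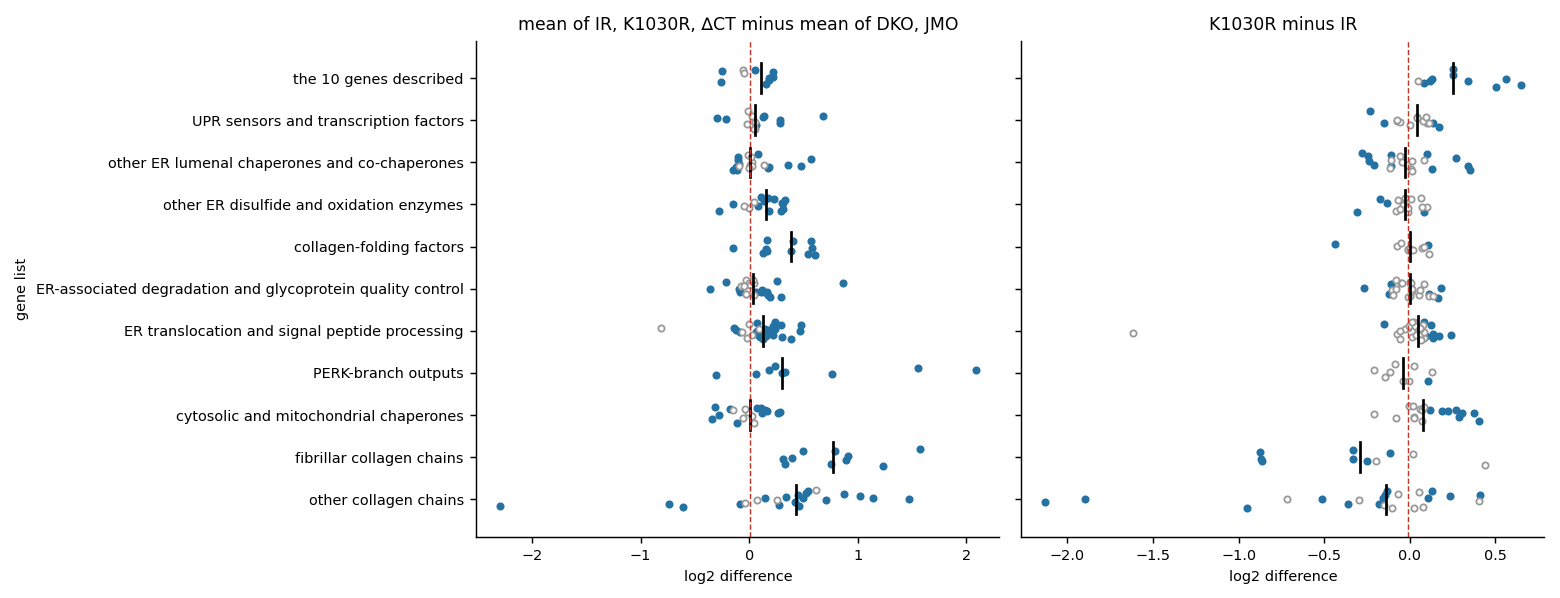
Log2 differences (horizontal axes) of the tested genes of each list (vertical axis), basal state, for the mean of IR, K1030R and ∆CT minus the mean of DKO and JMO on the left and for K1030R minus IR on the right. Filled points passed adjusted p below 0.05, black bars are list medians and the dashed line is the median of all tested genes. The 10 genes described have medians of 0.11 and 0.25, and the fibrillar collagens of 0.77 and -0.29.

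Across the 26 libraries, which share their lines, the 10 genes did not all vary together. Taking for each gene Pearson's r of its log2 CPM with the mean of the other 9, as a description, *Pdia6* (0.92) and *Xbp1* (0.90) were closest to the rest, followed by *Pdia3* and *Calr* (both 0.87), *Hsp90b1* (0.83) and *Hspa5* (0.83). *Pdia4* (0.67), *Canx* (0.54) and *Sdf2l1* (0.50) were looser, and *Dnajb9* was at -0.27. Over the 45 pairs of genes r ran from -0.59 (*Pdia4* and *Dnajb9*) to 0.94 (*Pdia6* and *Xbp1*) with a median of 0.67, and for deviations from the group means, which remove the lines, from -0.10 to 0.76 with a median of 0.30.

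Outside the 10 genes, those whose log2 CPM over the 26 libraries was most like the mean z-score of the 10 were *Pclaf* (r = 0.96), *Kif20a* (0.94), *Cenpf* (0.93), *Ckap5* (0.92) and *Cdc20* (0.92). *Pclaf* encodes a factor that binds PCNA and *Kif20a* a mitotic kinesin. *Pclaf* stood at 113 ± 6.08 CPM in IR, 129 ± 1.93 in DKO, 126 ± 1.37 in JMO, 141 ± 3.43 in K1030R and 146 ± 5.88 in ∆CT cells, basal. By the same measure the other lumenal chaperones ran from r = 0.88 (*Manf*) to -0.74 (*Sdf4*), with *Sil1* at -0.71 and *Sdf2* at -0.70. The collagen-folding factors ran from 0.67 (*Mia3*) to -0.09 (*Fkbp7*), with *Serpinh1* at 0.27. The fibrillar collagen chains ran from 0.27 (*Col2a1*) to -0.55 (*Col11a2*), with *Col1a1* at 0.13. The part of these cell cycle genes in the results above was not tested.

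After 15 min of insulin, 9 of the 10 genes were called in no line. None of the 10 was called in IR, K1030R or JMO cells by edgeR, DESeq2 or limma voom (1.87%, 0.156% and 0.364% of all genes were called by edgeR), and 4, 0 and 1 had an unadjusted p below 0.05. In ∆CT cells *Dnajb9* was called, where 1.01% of all genes were. Over the 10 genes the 95% intervals of the log2 difference lay between -0.37 and 0.34 in IR, -0.26 and 0.15 in K1030R, -0.15 and 0.47 in ∆CT and -0.28 and 0.14 in JMO cells.

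*Dnajb9* went from 25.4, 22.4 and 22.7 CPM to 29.26 and 29.3 CPM in ∆CT cells, and from 24.3, 25.7 and 25.2 to 29.0, 26.2 and 31.3 CPM in IR cells. Insulin libraries were above basal ones in both lines. In K1030R the values were 25.02, 25.1 and 27.4 CPM in the basal state and 24.96, 24.9 and 27.6 with insulin. The difference in ∆CT was 0.32 ± 0.073 (edgeR's quasi-likelihood test, adjusted p = 0.018), and it was not called without ∆CT basal 2 (0.11), ∆CT basal 3 (0.0764), ∆CT insulin 1 (0.156) or ∆CT insulin 2 (0.195). In IR it was 0.20 ± 0.066 (adjusted p = 0.11), and 0.27 with an adjusted p of 0.0316 without IR insulin 2. In 6 comparisons of the insulin effect between lines none of the 10 genes was called by edgeR or DESeq2, with 0 to 2 genes at an unadjusted p below 0.05. Of all genes, 0.37%, 0.00649% and 0.279% were called for K1030R, ∆CT and JMO against IR, and 0.416%, 0.026% and 0.26% for ∆CT against K1030R, JMO against K1030R and JMO against ∆CT.

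Other stress genes did respond in the same cells, and are named here after their values were seen. *Ddit3*, which encodes CHOP, rose with insulin by 0.58 ± 0.043 in IR (adjusted p = 1.7e-12) and by 0.45 ± 0.048 in ∆CT cells (3.8e-08), from 49.0 ± 1.503 to 73.4 ± 1.14 CPM in IR cells, and stood at 44.2 ± 0.488 and 44.3 ± 1.79 CPM in K1030R. *Ppp1r15a*, the phosphatase subunit GADD34 that reverses PERK signalling, rose in all 4 lines, by 1.05 ± 0.063 in IR, 0.95 ± 0.070 in ∆CT, 0.40 ± 0.062 in JMO and 0.37 ± 0.068 in K1030R cells. *Atf3*, a transcription factor of stress and serum responses, rose by 1.12 ± 0.155 in IR and 1.16 ± 0.172 in ∆CT cells. *Dnajb1*, a cytosolic Hsp40, rose by 0.67 ± 0.046 and 0.67 ± 0.050 in those 2 lines. *Hspa5* in the same comparisons was at 0.10 ± 0.050 (adjusted p = 0.39) and 0.06 ± 0.055 (0.77).

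**Figure D5:**
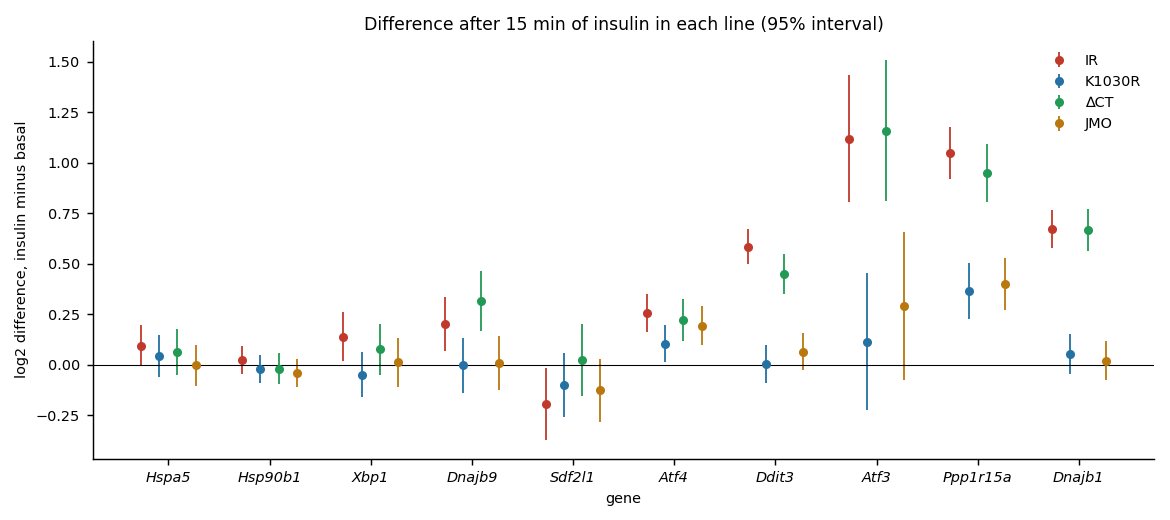
Log2 difference (vertical axis) between insulin and basal libraries with its 95% interval, for 5 of the 10 genes and for *Atf4*, *Ddit3*, *Atf3*, *Ppp1r15a* and *Dnajb1* (horizontal axis), in IR, K1030R, ∆CT and JMO cells. The ER genes run from -0.19 (*Sdf2l1* in IR cells) to 0.32 (*Dnajb9* in ∆CT cells), and *Ppp1r15a* reaches 1.05 in IR cells.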

How the data were processed

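Polyadenylated RNA was sequenced from 26 libraries. Per the study's methods the authors trimmed reverse-stranded 100-bp reads with fastp and quantified Ensembl mouse transcripts with kallisto, which tximport turned into gene totals. Tool versions are not given in the sources used here. The deposited values are expected counts per gene, unscaled, and 79.9% were exactly whole. They were rounded and scaled with TMM factors (0.966 to 1.05), and 15402 genes with CPM above 0.5 in at least 4 libraries were fitted in edgeR 4.0.16 (robust quasi-likelihood, 1 mean per group, all libraries, R 4.3.3). Adjusted p-values are Benjamini-Hochberg over all genes, and SE is the log2 difference over the root of its F. A minimum fold of 1.5 was tested with glmTreat. CPM are TMM-scaled, as mean ± SD. DESeq2 1.42.0 and limma 3.58.1 were alternatives, and the procedure was tested on simulated data. Transcript lengths and positions are GENCODE on GRCm38, and promoters RefSeq on GRCm38.p6. Members, lists and named genes (of each list the up to 4 called genes with the largest difference in the intracellular domain contrast, with exceptions stated) were chosen with earlier results of these data known. Same-numbered libraries of different groups did not vary together (median r of deviations -0.00111 over 100 pairs, none above 0.1). Libraries of a group differed beyond counting error (chi-square per degree of freedom 2.92 to 23.6 over 25 pairs).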

Additional observations from a re-analysis of the deposited data

Results flagged for a closer look

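The results below are differences between lines in the response to 15 min of insulin, each tested as an interaction in the edgeR fit with p-values adjusted over all 15402 genes. They concern stress genes outside the 10 ER genes, of which none was called in these comparisons.

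The insulin effect on *Ddit3* was smaller in K1030R than in IR cells, differing by -0.58 on the log2 scale (adjusted p = 7.4e-08), and smaller in JMO than in IR cells, by -0.52 (8.5e-07), larger in ∆CT than in K1030R by 0.45 (6.4e-05), and smaller in JMO than in ∆CT by -0.38 (0.00084). For *Ppp1r15a* the same differences were -0.68 (1.0e-05), -0.65 (1.4e-05), 0.58 (0.00047) and -0.55 (0.00081). For *Dnajb1* they were -0.62 (6.1e-08), -0.65 (1.7e-08), 0.61 (2.2e-07) and -0.65 (6.5e-08).

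*Atf3* differed between K1030R and IR cells by -1.004 (adjusted p = 0.029) and between ∆CT and K1030R cells by 1.04 (0.033). In each gene the kinase-dead receptor had a smaller response than the wild-type receptor or ∆CT. *Ppp1r15a* was also called within K1030R cells, at 0.37. The cause was not tested.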

How the results depend on the processing

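Normalisation by RLE or library totals, the filter on low counts, DESeq2, limma voom and the leaving out of each of the 26 libraries kept the number of genes called within 1.5 times in 10 of the 11 basal comparisons. With a minimum fold of 1.5 by glmTreat or limma TREAT, 0 of the 10 genes were called in each basal comparison, and 15 rather than 132 genes of the other lists in the intracellular domain contrast by glmTreat. Between ∆CT and K1030R the 2 calls became 1 at adjusted p below 0.01, with insulin libraries, with library totals or without the filter, 0 when only these groups were fitted, and 1 to 2 without single libraries. For insulin, the count ran from 0 to 1 without single libraries in IR cells, where IR insulin 2 decides it, and in ∆CT cells, where it was also 0 at adjusted p below 0.01, with a minimum fold or with only these groups fitted. Insulin libraries in place of basal ones reversed *Hspa5* in the intracellular domain contrast (0.016), and *Dnajb9* in K1030R against IR (-0.16), ∆CT against IR (0.025) and JMO against ∆CT (-0.11), and the cause was not tested. Of the values of single genes under settings other than leaving out a library, 801 kept direction and call, 193 lost the call, 8 gained it and 4 reversed. Among the 193, the minimum fold of 1.5 accounted for 78 by glmTreat and 78 by limma TREAT.

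Replicate numbers did not pair the libraries, with a median correlation of -0.00111. With the replicate number as a block, 9 genes were called in IR against DKO, as without it, 7 in JMO against DKO, 9 in ∆CT against IR and 9 in JMO against ∆CT. The block otherwise left the counts of the 10 genes as they were. Library totals were 17228982 counts or more. The scarce genes have the least precision, with an SE of about 0.065 for *Dnajb9* and 0.081 for *Sdf2l1* against 0.029 for *Calr* in IR against DKO, and the lowest count of a member in a library was 418.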
